A study of Homo sapiens with 6 samples.

Results

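The 4 mature arms of the precursors miR-342 and miR-223 (hsa-miR-342-3p, hsa-miR-342-5p, hsa-miR-223-3p and hsa-miR-223-5p) were followed in sequenced small RNA from MDA-MB-231 cells. They were chosen by name, because all-trans retinoic acid is known to raise both precursors in myeloid leukemia cells. All 4 are among the 1582 miRNAs counted, and only miR-342-3p was abundant enough to pass the expression filter that left 506 miRNAs for testing. MDA-MB-231 is a human triple-negative breast cancer cell line. The control group held 3 libraries of non-transfected cells, and the RARαS77A group held 3 libraries of the same line transfected with RARαS77A, a mutant of retinoic acid receptor α that cannot be phosphorylated at serine 77. The controls carried no empty vector, so the mutant receptor and its delivery cannot be told apart in this comparison. The sources used here name no retinoid treatment for the sequenced cells. Nothing in the labels says that the libraries came from separate cultures, and p-values then measure the spread between libraries, which may be technical.

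Retinoic acid acts through nuclear receptors of the RAR family, which bind DNA with RXR partners and switch target genes on once ligand is bound. In promyelocytic leukemia cells this drives granulocytic differentiation, and miR-223 and miR-342 rise with it. miR-223 is the typical miRNA of granulocytes and monocytes, controlled by the myeloid factors PU.1 and C/EBPα, and it represses NFIA. miR-342 is transcribed with EVL, a regulator of actin filaments, and its level in breast tumors is known to follow that of the estrogen receptor. Each precursor is a hairpin whose stem gives an arm from its 5′ side and an arm from its 3′ side, and usually one arm is kept as the guide that recognizes target mRNAs through bases 2 to 8, the seed.

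The precursor MIR342 lies on the plus strand of chromosome 14 from 100109655 to 100109753 (GRCh38). In GENCODE 29 it falls within EVL (99971449 to 100144236, plus strand), where 8 annotated transcripts span it and 0 of their exons touch it, so it is intronic. MIR223 lies on the plus strand of chromosome X from 66018870 to 66018979. It overlaps a non-coding gene, AL034397.3 (66015461 to 66020422), of which 2 annotated transcripts and 2 exons lie over it. The precursors are shown because the balance between their arms is one of the results. The sequences are those of RefSeq (GRCh38.p14), written 5′ to 3′, with the 5p and then the 3p arm in capitals.
MIR342: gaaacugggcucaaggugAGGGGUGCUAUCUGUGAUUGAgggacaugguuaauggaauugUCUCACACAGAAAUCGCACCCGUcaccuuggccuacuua
MIR223: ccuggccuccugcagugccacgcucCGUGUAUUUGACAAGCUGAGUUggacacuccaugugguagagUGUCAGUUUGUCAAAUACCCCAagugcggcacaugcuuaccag

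The mature arms are shown with the seed in capitals, since shared seeds or long shared stretches would let other miRNAs stand in for them in function or in the read counts.
hsa-miR-342-3p: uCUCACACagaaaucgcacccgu
hsa-miR-342-5p: aGGGGUGCuaucugugauuga
hsa-miR-223-3p: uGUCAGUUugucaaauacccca
hsa-miR-223-5p: cGUGUAUUugacaagcugaguu
The 4 seeds differ from each other, and 0 other human mature miRNAs in the RefSeq set carry any of them. The longest run of bases that miR-342-3p shares with another miRNA of the table is 10 of its 23 bases. For miR-342-5p, miR-223-3p and miR-223-5p it is 9, 8 and 9 bases. In addition, 0 other miRNAs had counts within 5% of those of miR-342-3p in every library. How the authors' counting treated reads with several matches could not be learned from the labels or methods.

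The libraries differed in the miRNAs of other cell types. Markers of pluripotent stem cells (the miR-302/367 and miR-371 to miR-373 clusters, 8 of 8 in the table) summed to 2 and 1 counts in control replicates 1 and 2, to 3802 in control replicate 3, and to between 2788 and 2861 in the RARαS77A libraries. The muscle list of 4 was highest in control replicate 1, at 91.5 TPM against 2.65 to 5.10 TPM elsewhere, and the liver list of 2 ranged from 8.91 TPM in control replicate 2 to 53.7 TPM. Control replicate 2 held 870 counts of miR-375-3p, typical of endocrine and luminal cells, against 19 to 54 in the others. For the cell line itself, miR-221-3p and miR-222-3p, which are abundant in basal-like breast cancer lines, lay between 5472 and 12703 TPM in the 6 libraries, and the epithelial miR-141-3p between 0.443 and 0.648 TPM, whereas miR-200c-3p, of the same precursor cluster, lay between 25.9 and 40.7 TPM. These 4 were chosen after their values were seen.

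Abundance was low for all 4 arms. Library totals ranged from 9019266 to 11338580 counts, with 989 to 1164 miRNAs detected. The deposited TPM is the count scaled to its library total, with no length term. The arms have 21 to 23 bases, so length matters little when their TPM are compared. Whether each sequence was captured equally well in the libraries was not tested, so comparisons between arms are of reads. miR-342-3p ranked highest, at 5.59 ± 0.333 TPM in control cells and 6.84 ± 0.483 TPM in RARαS77A cells (SD, n = 3 each). The other 3 arms had at most 13 counts in any library, and their ranges overlapped, so no order among them could be read. Where a library held 0 counts, as many as 3 remain possible, or 0.292 to 0.333 TPM in the libraries where this occurred. Such limits, like the intervals below, cover counting error only.

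**Figure D1:**
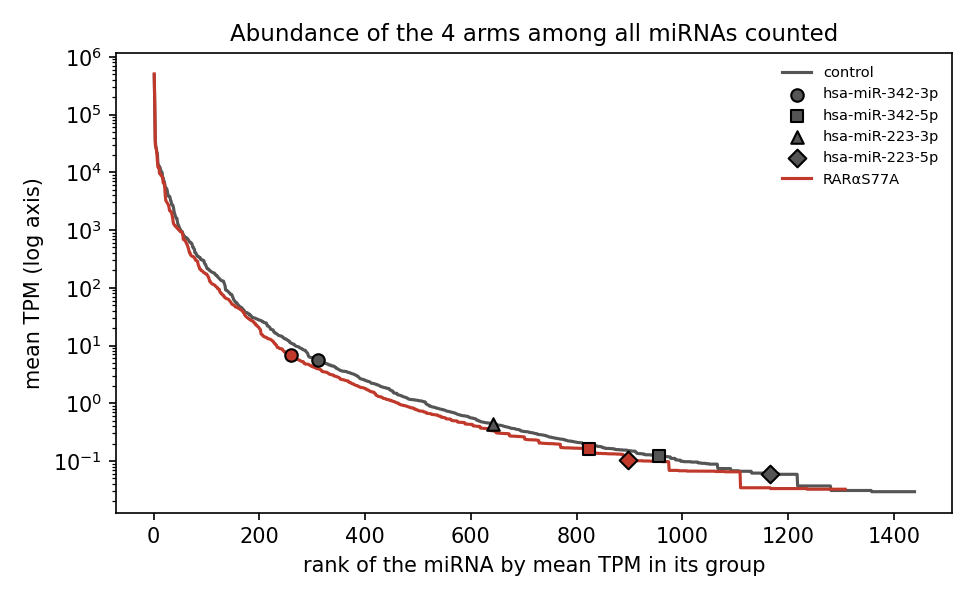
Mean TPM (log axis) of each miRNA against its rank by mean TPM in its group, with control cells in gray and RARαS77A cells in red; markers give the 4 arms in each group. miR-342-3p lies near 6 TPM in both curves, the other arms lie below 1 TPM, and miR-223-3p has no red marker because it had 0 counts in the RARαS77A libraries.

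miR-342-3p was called higher in RARαS77A than in control cells with TMM scaling, and was not called when libraries were scaled to their totals. Counts of miR-342-3p were 63, 65 and 47 in the control libraries, and 63, 68 and 74 in the RARαS77A libraries. As raw counts the groups overlapped, since control replicates 1 and 2 reached the lowest RARαS77A library. Scaled to the library total, the controls had 5.83, 5.73 and 5.21 TPM and the RARαS77A libraries 6.5, 6.62 and 7.39 TPM. On this scale each RARαS77A library lay above each control. With TMM factors, which correct for the composition of the libraries, the controls had 5.05, 4.42 and 4.29 CPM (TMM-normalized) and the RARαS77A libraries 8.01, 8.10 and 8.91 CPM. The groups were also apart here, at 4.59 ± 0.407 and 8.34 ± 0.494 CPM (SD, n = 3 each). Both separations gave p = 0.1 in a two-sided exact permutation test, the smallest that 3 against 3 libraries allow. All RARαS77A libraries lay above all controls in 31% of the tested miRNAs on the TMM scale and in 13.4% on the TPM scale.

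**Figure D2:**
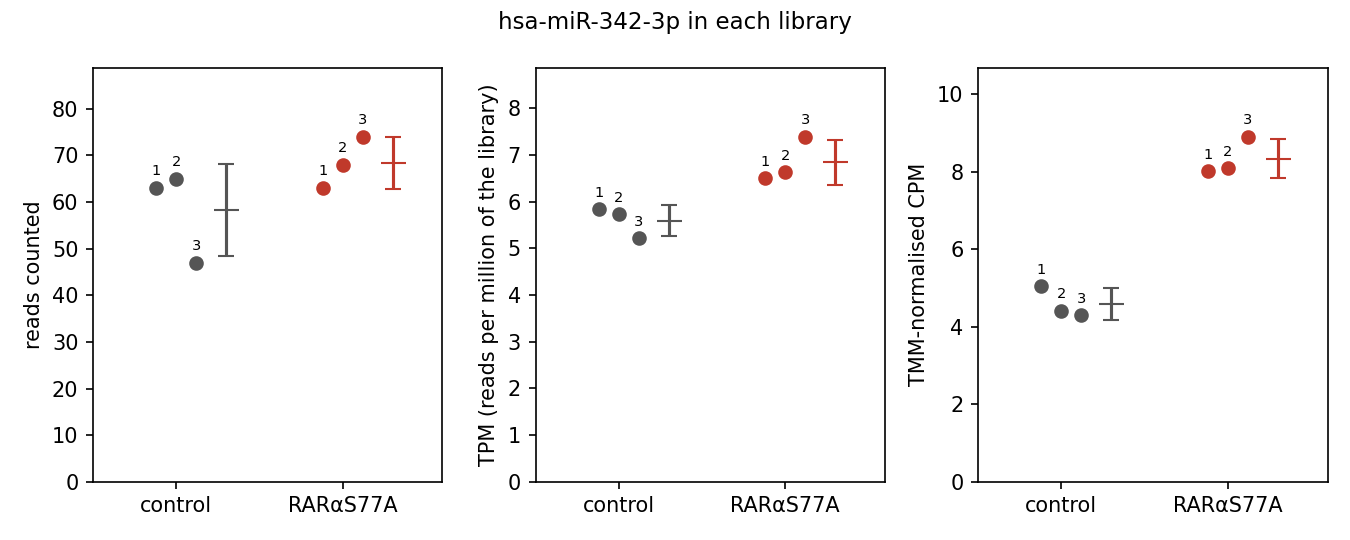
miR-342-3p in each library as reads counted, TPM and TMM-normalized CPM; points are libraries with their replicate numbers, and bars give the mean ± SD of 3 libraries. The groups overlap in reads counted, are 1.22-fold apart in mean TPM and 1.82-fold apart in mean CPM.

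In edgeR's quasi-likelihood test with TMM scaling, the log2 fold change of miR-342-3p was 0.86 (SE 0.16, 95% interval 0.47 to 1.25, Benjamini-Hochberg adjusted p = 0.00454 over 506 miRNAs). The background is wide, since 23.3% of the tested miRNAs were called higher. Scaled to total counts only, the log2 fold change was 0.29 (95% interval -0.11 to 0.68, adjusted p = 0.188, edgeR), which is no call, and 10.1% of miRNAs were called higher. The scaling moved all miRNAs together, with a median log2 fold change over the tested miRNAs of 0.06 with TMM and -0.51 with total counts. With TMM scaling miR-342-3p stood 0.80 above that median on the log2 scale, and 79.6% of tested miRNAs had a smaller log2 fold change. A scaling factor shifts all miRNAs by about the same amount, so these values cannot differ much between scalings. Its rank by count, which needs no scaling factor, was 291, 311 and 323 among the 1099, 1164 and 1084 miRNAs detected in the control libraries. In the RARαS77A libraries it was 254, 261 and 255 among 989, 1037 and 1029, so the lists differ in length (two-sided exact permutation test, p = 0.1). The ranks were apart in this direction for 25.5% of the tested miRNAs.

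The depth behind miR-342-3p limits its precision. Counting error alone amounts to 13.1% of the mean count in a control library and 12.1% in a RARαS77A library. The spread between libraries of a group was smaller than that, at 5.96% and 7.07% of the mean TPM. Counting error alone would give the log2 fold change a standard error of 0.15, close to the fitted one. Pooled over libraries, miR-342-3p was at 5.62 TPM in control cells (175 counts, 95% Poisson interval 4.81 to 6.51) and 6.84 in RARαS77A cells (205 counts, 5.93 to 7.84). The intervals overlap on this unscaled measure.

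The call was also examined against the library that shares the stem cell miRNAs. Control replicate 3 had the lowest miR-342-3p of the 6 libraries on all scales. Without it the log2 fold change was 0.76 (adjusted p = 0.0281, edgeR), and with a term that sets control replicate 3 apart together with the RARαS77A libraries it was 0.96 (adjusted p = 0.0437, edgeR). In that fit control replicate 3 is the 1 control compared with the RARαS77A libraries. Leaving out each library in turn gave 0.76 to 0.93, with an adjusted p under 0.05 each time (0.0130 to 0.0281, edgeR). Without the expression filter, with 1582 miRNAs in the fit, it was 0.68 (adjusted p = 0.0516, edgeR) and was not called.

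**Figure D3:**
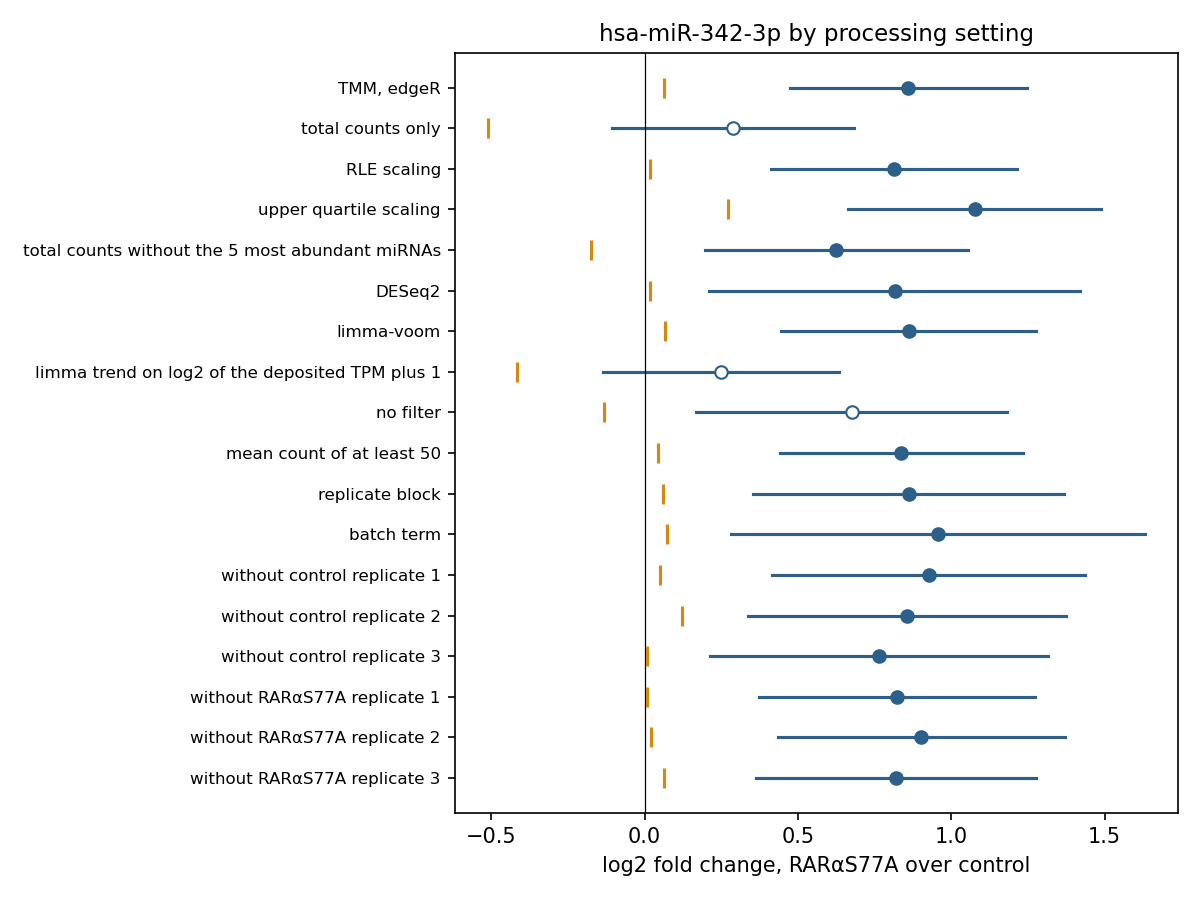
Log2 fold change of miR-342-3p (RARαS77A over control) under each processing setting, with 95% intervals; filled points passed an adjusted p of 0.05, open points did not, and short orange ticks give the median of all tested miRNAs in that setting. The estimates lie between 0.25 and 1.08, the lowest with total counts or TPM, and the orange ticks shift with them.

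The passenger arm miR-342-5p was near the limit of detection. It was counted 3, 1 and 0 times in the control libraries and 0, 3 and 2 times in the RARαS77A libraries. The groups overlapped, and the means were 0.103 ± 0.124 and 0.199 ± 0.182 CPM (SD, n = 3 each; two-sided exact permutation test, p = 0.5, and 0.8 on TPM). It made up 2.23% of the reads of both arms in control cells (4 of 179 reads, 95% Wilson interval 0.872 to 5.60%) and 2.38% in RARαS77A cells (5 of 210, 1.02 to 5.45%). The mean log2 ratio of the 3p to the 5p arm, with 0.5 added to each count, was 5.40 ± 1.2 and 5.39 ± 1.42 (SD, n = 3 each; two-sided exact permutation test, p = 1.0). In both groups nearly all miR-342 reads were thus from the 3p arm. A shift in arm balance was not detectable at this depth, and the Wilson intervals are wide.

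Around MIR342, the miRNA genes within 500 kb are MIR151B, 140 bases away on the opposite strand and also within EVL's span, MIR6764 and MIR345. miR-345-5p was the most abundant, at 106 ± 8.91 CPM in control and 134.5 ± 10.03 CPM in RARαS77A cells (SD, n = 3 each). Its log2 fold change of 0.34 was not called (adjusted p = 0.0554, edgeR), and it was -0.24 with total counts. miR-151b had 90, 202 and 93 counts in the controls and 47, 44 and 81 in RARαS77A cells, with a log2 difference of -0.49 (adjusted p = 0.259, edgeR), and it was called lower with total counts, at -1.08 (adjusted p = 0.0383, edgeR). Its value is uncertain, because its sequence is contained in that of miR-151a-5p. The arms of miR-6764 and miR-345-3p had at most 3 counts per library. MIR223 has no other miRNA gene within 500 kb.

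By likeness of the log2 CPM profile over the 6 libraries, the miRNAs most similar to miR-342-3p among 489 tested miRNAs averaging 10 or more counts were miR-204-5p, the predicted novel_321 and miR-34c-5p, with Pearson's r of 0.999, 0.996 and 0.995. These points share libraries and scaling factors, and a difference between the groups by itself raises r. miR-204-5p had 27, 27 and 19 counts in control and 28, 31 and 35 in RARαS77A libraries. Its raw counts overlapped between the groups, as those of miR-342-3p did, and its log2 fold change with TMM scaling was 0.99. novel_321 and miR-34c-5p had log2 fold changes of 1.84 and 0.55.

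miR-223 was scarce, with 20 counts of both arms over the 6 libraries. miR-223-3p, its guide arm in myeloid cells, had 2, 13 and 0 counts in the control libraries and 0, 0 and 0 in the RARαS77A libraries. It was thus not detected in RARαS77A cells, at a depth where 3 counts would be 0.1 TPM over the group. Control replicate 2 held 13 of the 15 counts, and control replicate 3 was at 0 like the RARαS77A libraries, so the groups overlapped (0.348 ± 0.471 CPM in control, SD, n = 3; two-sided exact permutation test, p = 0.4). Pooled over library totals, miR-223-3p in control cells was 4.81-fold the floor that 3 counts would give in the RARαS77A group. This fold takes the control counts as exact and uses no TMM factors, so it is not a lower limit. Poisson intervals, for counting error only, were 0.269 to 0.794 TPM in control cells and 0 to 0.123 TPM in RARαS77A cells. Without control replicate 2 the controls held 2 counts, under that floor, and no fold can be given.

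miR-223-3p did not pass the expression filter. In an edgeR fit of all 1582 miRNAs without a filter it was called lower (adjusted p = 0.0265), as were 10.2% of all miRNAs. The call was lost without control replicate 2 (adjusted p = 0.621, edgeR) and also without RARαS77A replicate 1, 2 or 3 (adjusted p = 0.0656, 0.0704 and 0.0712, edgeR). It held without control replicate 1 or 3 (adjusted p = 0.0147 and 0.00366, edgeR). These fits were added after the data were seen. DESeq2 without a filter gave an unadjusted p of 0.0832 and no adjusted p for it. miR-223-5p had 1, 1 and 0 counts in control and 3, 0 and 0 in RARαS77A libraries (two-sided exact permutation test on CPM, p = 1.0). The 5p arm was thus seen in RARαS77A replicate 1 where the 3p arm was not, on 3 reads. Over all libraries 5 of the 20 reads were 5p, and the mean log2 ratio of 3p to 5p was 1.30 ± 1.66 for the controls and -0.94 ± 1.62 for RARαS77A cells (SD, n = 3 each, not tested).

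The miRNAs of other cell types also varied by library. A list of 8 blood cell miRNAs, all present in the table, summed to 48.2, 61.1 and 47.7 TPM in control and to 46.5, 38.4 and 35.7 TPM in RARαS77A libraries, highest in control replicate 2. With TMM factors the same list summed to 41.8, 47.1 and 39.3 CPM in control cells and to 57.4, 46.9 and 43.0 CPM in RARαS77A cells, highest in RARαS77A replicate 1. The order of the libraries and the direction between the groups thus turned with the scaling. The erythroid miR-451a had 140, 217 and 113 counts in control and 149, 69 and 71 in RARαS77A libraries. miR-150-5p, typical of lymphocytes, had 11, 23 and 3 and then 1, 14 and 2 counts, and the pan-leukocyte miR-142-3p had 36, 39 and 29 and then 12, 25 and 26. The erythroid miR-144-3p was at 0 in 4 of 6 libraries. miR-486-5p had 130, 195 and 134 counts in control and 136, 134 and 122 in RARαS77A libraries. miR-486-3p had nearly the same counts, at 126, 191 and 127 and then 134, 132 and 120. Whether both rows count the same reads was not tested, so the sums of the list may hold some reads more than once. With TMM factors, miR-486-5p and miR-486-3p had mean CPM of 11.97 and 11.56 in control and 15.98 and 15.74 in RARαS77A cells. Each RARαS77A library lay above each control for both, as was so for 31% of all tested miRNAs on this scale. The mean TPM of miR-486-5p and miR-486-3p, and the mean CPM of the other members of the list, were lower in RARαS77A cells. Control replicate 2, which held the most miR-223-3p, is also the library with high miR-375-3p. The part of these miRNAs in the counts of miR-223-3p was not tested.

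**Figure D4:**
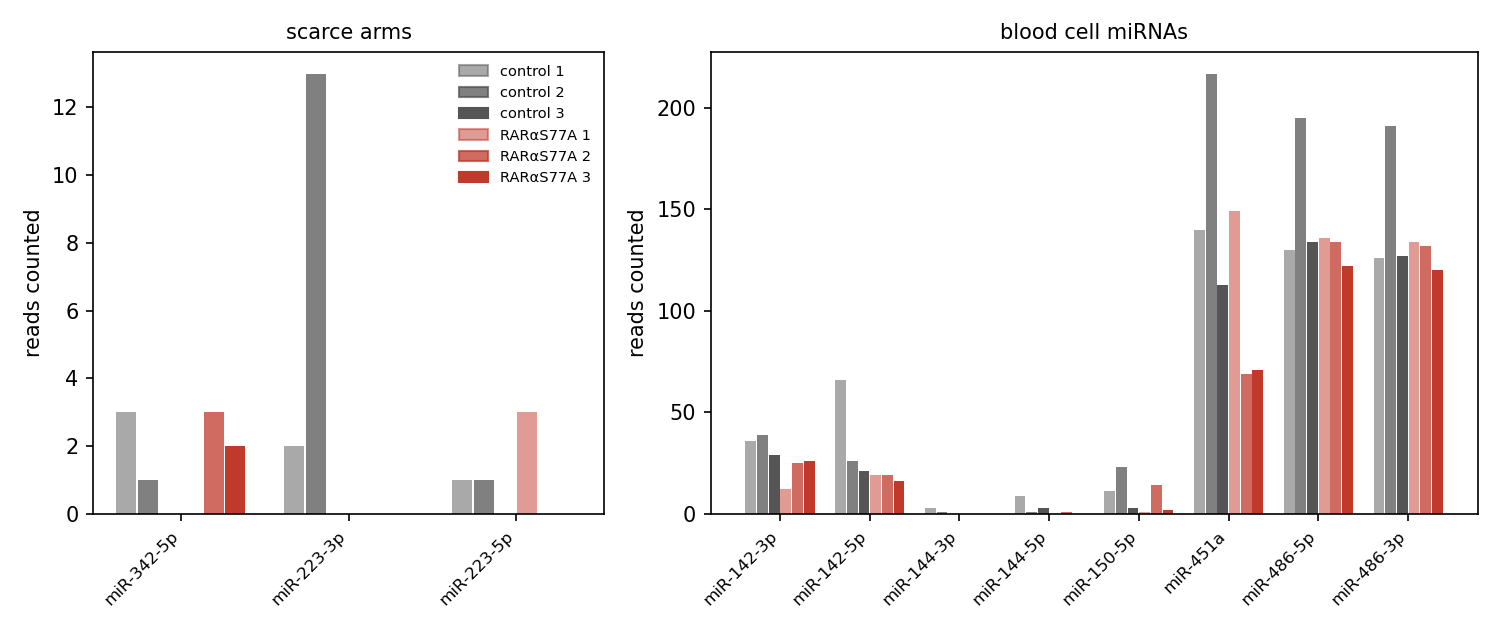
Reads counted per library for the 3 scarce arms (left) and for 8 blood cell miRNAs (right), with controls in gray and RARαS77A libraries in red, shaded by replicate. The 13 reads of miR-223-3p in control replicate 2 stand out. Of the 8 blood cell miRNAs, 5 have their most reads in that library, which has the largest total (11338580 counts). They include miR-486-5p and miR-486-3p, whose counts are nearly the same. The share of all miRNAs with their most reads there was not computed. miR-142-5p, miR-144-3p and miR-144-5p have theirs in control replicate 1. By TPM 5 of the 8 are highest in control replicate 2, and with TMM-normalized CPM 0 of the 8.

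The change of miR-342-3p was set beside that of other miRNAs with a described link to retinoic acid. Of 7 miRNAs that retinoic acid is described to raise in promyelocytic leukemia cells, 0 were called higher and 5 lower in RARαS77A cells (edgeR, TMM), where 21.1% of all tested miRNAs were lower. None was higher at an unadjusted p under 0.05, and DESeq2 and limma-voom likewise called 0 higher and 5 lower. Their median log2 fold change was -0.68, against 0.06 over all tested miRNAs. The 5 were miR-15a-5p, miR-15b-5p and miR-16-5p, which restrain BCL2 and cyclins, miR-107, hosted by PANK1, and let-7d-5p. In control cells miR-107 was at 596 ± 17.0 CPM and in RARαS77A cells at 237 ± 44.9 CPM (SD, n = 3 each), which is -1.33 on the log2 scale of the fit (adjusted p = 0.000334, edgeR). miR-15a-5p was at -1.14 and miR-15b-5p at -1.06 (adjusted p = 0.00435 and 0.00313, edgeR). miR-16-5p was at -0.68 (adjusted p = 0.00171, edgeR). These 4 were called lower in every setting run. let-7d-5p, at -0.40 (adjusted p = 0.0311, edgeR), was not called with upper quartile scaling or with the term that sets control replicate 3 with the RARαS77A libraries. let-7a-5p and let-7c-5p had log2 fold changes of -0.21 and -0.11 and were not called, and with upper quartile scaling let-7c-5p was at 0.08. With total counts, 7 of the 7 were called lower, where 42.1% of all miRNAs were.

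The 2 miRNAs that the study's introduction names as controlled by RARα were called higher with TMM scaling, where 23.3% of all tested miRNAs were, and 1 of them with total counts, where 10.1% were. miR-10a-5p, a HOX cluster miRNA, was at 2589 ± 132 CPM in control cells and 4643 ± 187 CPM in RARαS77A cells (SD, n = 3 each), which is 0.84 on the log2 scale (adjusted p = 0.000249, edgeR), close to that of miR-342-3p. It was called in every setting run, with total counts at 0.27 (adjusted p = 0.0257, edgeR). miR-21-5p, which took the largest share of reads, was at 0.65 (adjusted p = 0.0482, edgeR) and at 0.08 with total counts (adjusted p = 0.716, edgeR). Its call was also lost without RARαS77A replicate 1, 2 or 3 (adjusted p = 0.195, 0.0987 and 0.121, edgeR). miR-181b-5p, described as lowered by retinoic acid in leukemia cells, was at 786 ± 59.3 CPM in control cells and 424 ± 54.5 CPM in RARαS77A cells (SD, n = 3 each), which is -0.89 on the log2 scale (adjusted p = 0.00101, edgeR), and it was called lower in every setting run.

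**Figure D5:**
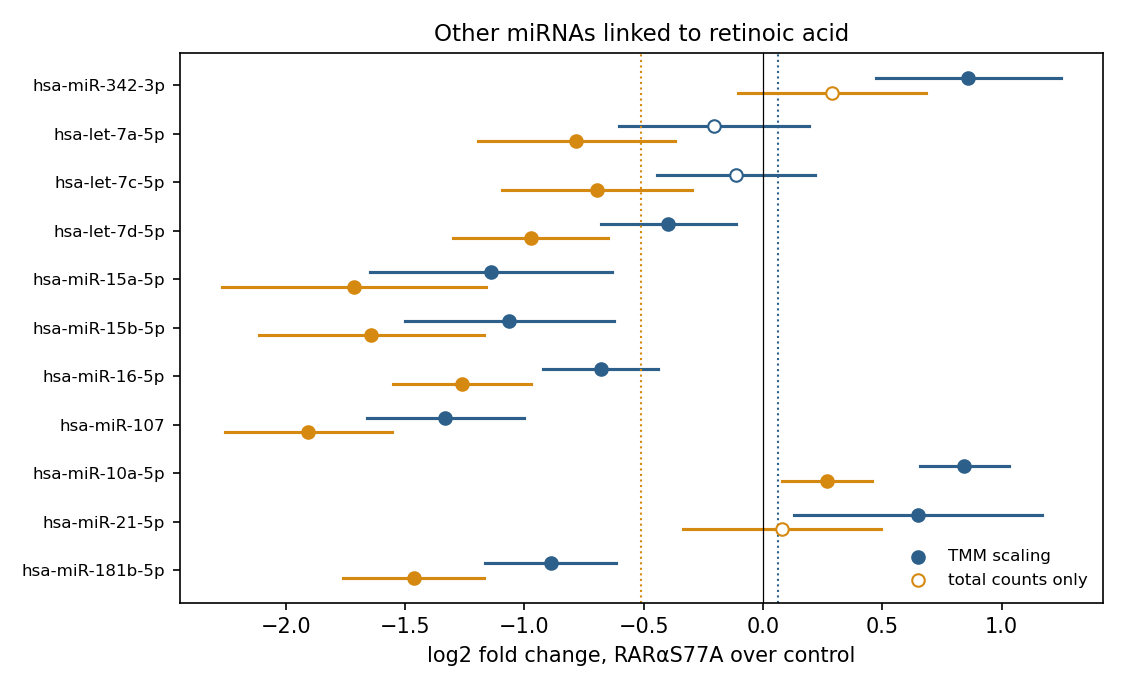
Log2 fold changes (RARαS77A over control) of miR-342-3p and of 10 other miRNAs linked to retinoic acid, with 95% intervals, for TMM scaling (blue) and total counts only (orange); filled points passed an adjusted p of 0.05, and dotted lines are the medians of all tested miRNAs. miR-342-3p and miR-10a-5p lie to the right at 0.86 and 0.84 with TMM, and miR-107 lies farthest to the left at -1.33.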

How the data were processed

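Small RNA libraries (NEBNext kit, Illumina HiSeq) of 3 control and 3 RARαS77A samples of MDA-MB-231 cells were analyzed. The authors deposited raw read counts per mature miRNA, and TPM that equals the count scaled to its library total (largest difference 4.74e-05 TPM). Bowtie is named in the submitters' processing notes, with no role, and the genome build and how strand and multiple matches were handled are not stated in the labels or methods. Counts were tested with edgeR 4.0.16 in R 4.3.3 (TMM scaling, filterByExpr with a minimum count of 10, glmQLFit and glmQLFTest, adjusted p under 0.05 over all miRNAs tested), without a block. Standard errors were derived from each log2 fold change and its F statistic, and CPM uses TMM factors. Alternatives used DESeq2 1.42.0, limma 3.58.1, other scalings and filters, a term that sets control replicate 3 with the RARαS77A libraries, and left-out libraries. Arms below the filter were compared by exact permutation tests on CPM, and the miR-342 arm ratio likewise. The miR-223 arm ratio was not tested. Poisson and Wilson intervals used scipy 1.17.1. Scripts were tested on simulated data.

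The members, the lists, the named miRNAs and that term were chosen with earlier results of these data known. Named were the 4 arms, the retinoic acid list, miRNAs of precursors within 500 kb, miRNAs sharing a seed, the 3 closest profiles (mean count of at least 10) and marker lists. The marker written as miR-375 in the list is miR-375-3p in the table; this match was made after the counts were seen. Mature and precursor sequences were matched by name to RefSeq (1342 of 1582 names), and gene positions to GENCODE 29.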

Additional observations from a re-analysis of the deposited data

How the results depend on the processing

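miR-342-3p kept its direction in all 17 alternatives and its call in 14. It lost the call with total counts only (0.29, adjusted p = 0.188, edgeR), with limma trend on TPM (log2, pseudocount 1; 0.25, adjusted p = 0.231), both of which lack a composition factor, and without a filter (0.68, adjusted p = 0.0516, edgeR), where 1582 miRNAs were tested. Without single libraries it lay between 0.76 and 0.93. Higher miRNAs numbered 118, but 51 with total counts, 55 with limma on TPM and 76 with the term for control replicate 3, which compares that 1 control with the RARαS77A libraries. Lower miRNAs numbered 107, but 213, 221 and 55 in these settings and 162 without a filter. The cause was not tested beyond this. Without single libraries 101 to 125 were higher and 92 to 116 lower. Of the retinoic acid list of 9, 2 were called higher, but 1 with total counts, RLE scaling, total counts without the 5 most abundant miRNAs, limma on TPM, the replicate block or the term for control replicate 3, and 1 to 2 without single libraries, where each RARαS77A replicate left out cost the call of miR-21-5p. Lower members numbered 5, and 4 to 7 over the alternatives. The differences of the scarce arms and of the arm ratios, which have no fitted p-value, rest on few reads. They moved by less than 1 SD, which is as large as most of them. In mean CPM, miR-342-5p went from 0.096 to 0.013 without RARαS77A replicate 2, miR-223-3p from -0.35 to -0.078 without control replicate 2, and miR-223-5p from 0.078 to -0.052, the opposite direction, without RARαS77A replicate 1. The log2 arm ratio difference of miR-342 (-0.0077) ran from -0.81 to 0.58, both directions, and that of miR-223 (-2.24) from -2.89 to -1.30. The CPM differences were not computed with the term for control replicate 3, the block, DESeq2, limma, or the total without the 5 most abundant miRNAs. The arm ratios, which use no scaling, were recomputed only with 1 added to each count and without single libraries.

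Replicate numbers are shared by the groups, but deviations of same-numbered libraries correlated at 0.0258, 0.105 and 0.0118, and 3 of 6 libraries correlated best with their own number. By this check no pairing was taken. With the replicate block, 107 miRNAs were higher and 94 lower, miR-342-3p was at 0.86 (adjusted p = 0.0218, edgeR), and miR-21-5p was not called (adjusted p = 0.130). The unfiltered call of miR-223-3p held without control replicate 1 or 3 and was lost without any of the other 4 libraries.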
